A study of Mus musculus with 2 samples.

Results

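The 9 genes described here encode the AP-2 transcription factors (Tcfap2a, Tcfap2b, Tcfap2c, Tcfap2d and Tcfap2e, the older mouse symbols of Tfap2a to Tfap2e) and the nuclear factor I (NFI) transcription factors (Nfia, Nfib, Nfic and Nfix). They were chosen by family name, with earlier results of these data known, out of 22359 protein-coding genes. Foxf2 is a DNA-binding protein of the forkhead family that is active in palatal mesenchyme. A region enriched for Foxf2 was counted for a gene when its centre lay inside the gene. It was also counted when, of all starts of protein-coding transcripts (transcription start sites, TSS), one of the gene's was nearest and within 100 kb. This gave 21 of the 9165 regions (peaks) in the deposited list.

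The peaks came from chromatin immunoprecipitation and sequencing (ChIP-seq) of palatal shelves, the paired outgrowths that form the palate, of mouse embryos at E13.5 (a day of embryonic development). Both Foxf2 alleles of these embryos carried a 3xFLAG epitope at the endogenous gene, introduced with CRISPR/Cas9 (Foxf2FLAG/FLAG), and 50 pairs of shelves were pooled as bulk tissue. There was 1 ChIP library, made with anti-FLAG antibody, of 26849463 tags, and 1 input library, made without antibody, of about 19240000 tags as the peak values imply. Both came from tagged embryos, so no library without the tag served as a control here, and with 1 library of each kind no value has a replicate check. In bulk tissue, occupancy in fewer cells and less occupancy per cell cannot be told apart. A peak near a gene does not show that the gene was expressed or that Foxf2 acts on it, and no RNA was measured here.

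AP-2 proteins are dimers that bind GC-rich sequence, typically GCCNNNGGC (N is any base). Tcfap2a and Tcfap2b are known for their roles in the neural crest and the face, and loss of Tcfap2a in mice leaves the face cleft. NFI proteins bind a palindrome as dimers, of which 1 arm reads TTGGC, and are known for roles in brain, lung, tooth and muscle development. Forkhead proteins such as Foxf2 recognise a core of the form GTAAACA.

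Foxf2-FLAG peaks lay at 6 of the 9 genes. Of the 5 AP-2 genes, Tcfap2a, Tcfap2b and Tcfap2c had 1 peak each, and Tcfap2d and Tcfap2e had none. Of the 4 NFI genes, Nfib had 8 peaks, Nfia 7 and Nfix 3, and Nfic had none. Among all protein-coding genes, 23.9% had at least 1 peak by the same rule, 6.8% at least 2, 2.48% at least 3, 0.657% at least 5, 0.197% at least 7 and 0.0894% at least 8. The counts of Nfib and Nfia thus lay in the top 0.197% of genes, and the 3 AP-2 genes with a peak had 1, as most genes with a peak do. Nfib and Nfia are long genes. Of genes within 1.5 times the length of Nfib, 1.66% had at least 8 peaks, and for Nfia 4.26% had at least 7. NFI genes held 18 of the 21 peaks, and 980 of the 1121 kb that the 9 genes cover.

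Forkhead sequences were searched on both strands as GTAAACA and its close forms. These forms were GTAAATA (changed near its end), ATAAACA (changed at its start) and ATAAATA (changed at both). The sites of the full core are shown first because it is the sequence forkhead proteins recognise. GTAAACA occurred 7 times in the 21 peaks, once each in 7 of them (33.3%), and in 28.4% of all peaks. Per kb of peak this was 0.557 sites in the 21 and 0.560 in all peaks, so the whole-peak count was near that of the list. Each occurrence is given with 20 bases on either side, read on the strand that shows GTAAACA and with that core in capitals. The sites lay on the minus strand at chr1:19169245-19169291 (Tcfap2b), chr4:97591092-97591138 and chr4:97773844-97773890 (Nfia peaks 6 and 7), chr4:81973116-81973162 (Nfib peak 1) and chr4:82353186-82353232 (Nfib peak 8). They lay on the plus strand at chr4:97505727-97505773 (Nfia peak 5) and chr4:82038184-82038230 (Nfib peak 2). All coordinates are on mm9, and the peaks of a gene are numbered along the plus strand of the chromosome.
Tcfap2b: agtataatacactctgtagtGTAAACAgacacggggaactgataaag
Nfia peak 5: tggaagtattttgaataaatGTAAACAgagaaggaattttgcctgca
Nfia peak 6: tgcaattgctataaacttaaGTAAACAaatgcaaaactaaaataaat
Nfia peak 7: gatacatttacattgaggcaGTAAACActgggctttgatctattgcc
Nfib peak 1: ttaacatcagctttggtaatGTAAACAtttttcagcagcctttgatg
Nfib peak 2: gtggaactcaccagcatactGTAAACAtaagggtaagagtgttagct
Nfib peak 8: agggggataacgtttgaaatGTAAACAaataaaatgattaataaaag
The base just before the core was T in 5 of the 7 and A in the other two. At the second base after the core, 5 of the 7 had A and the other two T, and at the third base before it 5 had A. At none of the 10 positions on either side did more than 5 of the 7 share a base. These positions were not counted at the 3052 GTAAACA sites of all peaks, so no preference for a base can be read from the 7.

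**Figure D1:**
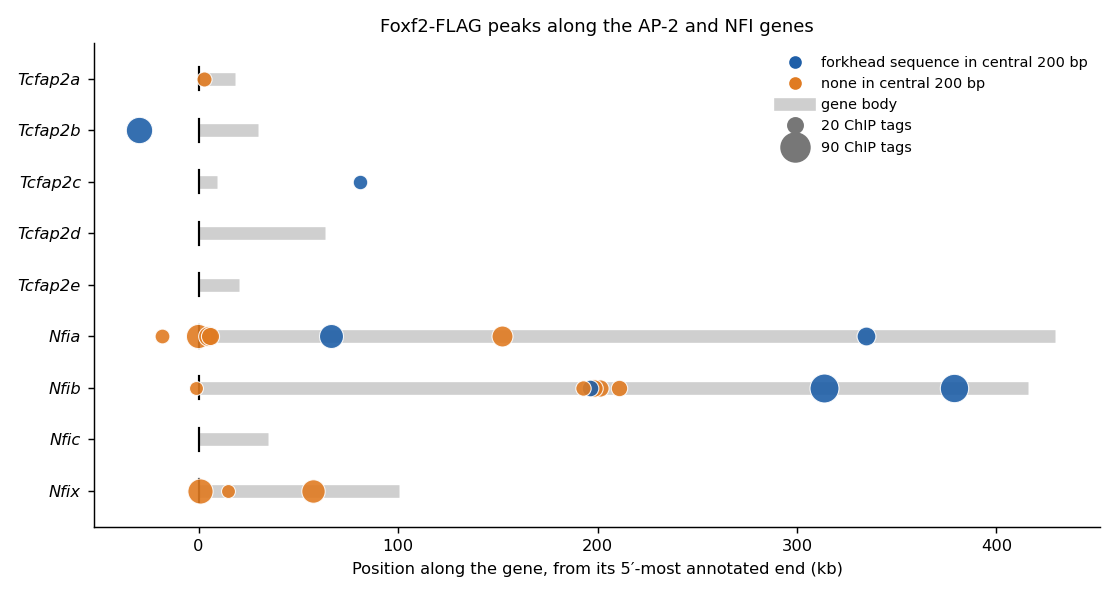
Position of the 21 Foxf2-FLAG peaks (circles, area grows with the number of ChIP tags) along the 9 genes, in kb from the 5′-most annotated end of each gene (black tick), with the gene body in grey. Blue circles held a forkhead sequence in their central 200 bp (7 peaks) and orange circles did not (14 peaks). Nfia and Nfib carry 15 of the circles, and the rows of Tcfap2d, Tcfap2e and Nfic are empty.

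Tcfap2b, which encodes an AP-2 factor known for its roles in the neural crest and kidney, had the strongest AP-2 peak. It lay at chr1:19168996-19169623, between genes, 29.7 kb upstream of the Tcfap2b start and 12.9 kb past the end of Tcfap2d, the neighbouring AP-2 gene on the same strand. In this peak 75 tags of the ChIP library stood against 4 of the input library. The deposited fold over input, which allows for the depth of both libraries, was 13.4 (exact 95% interval 5.04 to 50.6, as in the brackets after the folds that follow). Its score of 77, the peak caller's own measure of strength, exceeded those of 95.4% of all peaks. The score was the second highest of the 21.

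No other peak of the list lay near the Tcfap2b peak. The next ones were 1728 kb to the left and 1287 kb to the right, and 0.480% of all peaks had their next peak at least that far away. The start of Tcfap2d was 76.2 kb from the peak and Tcfap2b was nearer, so the rule gave the peak to Tcfap2b and none to Tcfap2d, a gene known for its role in the midbrain. The 2 genes are separated by 42.6 kb, and the data do not tell which of them, if either, the peak belongs to. Where pseudogenes were also allowed, the start nearest to it was that of Gm10075, 25.3 kb away.

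The central 200 bp of the Tcfap2b peak (chr1:19169210-19169409, plus strand) show how its forkhead sequences lie. Capitals mark GTAAACA, which reads TGTTTAC on this strand, and an overlapping pair of GTAAATA and ATAAATA at the right end.
Tcfap2b centre: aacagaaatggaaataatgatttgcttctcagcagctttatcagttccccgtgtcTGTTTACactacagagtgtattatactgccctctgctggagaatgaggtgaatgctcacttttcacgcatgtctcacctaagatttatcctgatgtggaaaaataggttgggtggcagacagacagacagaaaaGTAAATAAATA
Counted along the plus strand from the peak centre, GTAAACA lay at -41 bp, GTAAATA at 93 bp and ATAAATA at 97 bp. The window 2000 bp to the left (toward lower coordinates) held no forkhead sequence. Of such windows over all peaks, 18.2% held one.

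Tcfap2a, the AP-2 gene whose loss leaves the mouse face cleft, had a weak peak at a promoter. It lay at chr13:40826107-40826607, 570 bp upstream of the start of the shorter transcript Tcfap2a-201 and within intron 1 of Tcfap2a-202, 2.84 kb into the gene. With 20 ChIP tags against 1 input tag, its fold was 14.3 (2.29 to 594). Its score of 21 exceeded those of 34.6% of all peaks. No forkhead sequence lay anywhere in this peak, but an AP-2 sequence did, 165 bp from the centre. It is shown here (capitals, chr13:40826498-40826546, plus strand) because it lies in a peak at the start of an AP-2 gene.
Tcfap2a: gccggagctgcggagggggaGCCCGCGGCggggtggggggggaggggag

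Tcfap2c, an AP-2 factor of the trophoblast and germ cells, had its only counted peak far downstream. It lay at chr2:172456027-172456527, 79.8 kb downstream of the nearest start of the gene. Its 18 ChIP tags stood against 1 input tag, its fold was 12.9 (2.04 to 537) and its score 20. A GTAAATA lay 33 bp from its centre, as the central 100 bp show (capitals, chr2:172456228-172456327, plus strand).
Tcfap2c centre: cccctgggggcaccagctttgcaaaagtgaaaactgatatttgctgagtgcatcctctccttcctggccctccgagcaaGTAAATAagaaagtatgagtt
Just outside the limit of 100 kb, 4 more peaks had Tcfap2c as their nearest gene, at 109, 132, 176 and 189 kb. They held 39, 91, 18 and 65 ChIP tags against 2, 4, 1 and 3 input tags. Thus 3 of these 4 had more ChIP tags than the one inside the limit, and their scores of 39, 37 and 68 were above its 20.

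Tcfap2e, an AP-2 gene known from the olfactory system, had no peak by the rule. The peak nearest to its start was 43.4 kb away, with 18 ChIP tags against 1 input tag, and lay nearer to the start of AU040320.

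Nfib, an NFI factor known for its roles in lung and forebrain development, had the strongest peak of the 21. Nfib peak 2 lay at chr4:82037970-82038627 in intron 2 of Nfib-001, 113 kb downstream of the nearest start. There were 92 ChIP tags against 4 input tags in it, the fold was 16.5 (6.22 to 61.8), and its score of 84 exceeded those of 96.5% of all peaks. Nfib peak 1 lay 65.1 kb farther downstream, in intron 8, at chr4:81972769-81973586. It was nearly as rich in tags, 88 from the ChIP and 4 from the input, with a fold of 15.8 (5.94 to 59.1), but its score was 30. Both peaks lay more than 100 kb from a start and counted only because they lie inside the gene.

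Both intronic Nfib peaks held several forkhead sequences near their centres, and their central 200 bp are shown for this reason (plus strand, forkhead sequences in capitals). The window of peak 1 is chr4:81973078-81973277 and that of peak 2 is chr4:82038199-82038398.
Nfib peak 1 centre: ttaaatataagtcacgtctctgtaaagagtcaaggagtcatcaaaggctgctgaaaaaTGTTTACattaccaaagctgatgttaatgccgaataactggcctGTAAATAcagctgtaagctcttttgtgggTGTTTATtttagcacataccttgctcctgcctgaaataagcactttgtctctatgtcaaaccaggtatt
Nfib peak 2 centre: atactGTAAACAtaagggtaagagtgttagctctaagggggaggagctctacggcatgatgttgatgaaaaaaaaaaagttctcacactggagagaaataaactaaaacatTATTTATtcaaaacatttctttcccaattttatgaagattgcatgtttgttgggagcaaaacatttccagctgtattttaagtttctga
Peak 1 had 3 forkhead sequences in this window, GTAAACA at -38 bp from the centre, GTAAATA at 6 bp and ATAAACA at 35 bp. Peak 2 had 2, GTAAACA at -91 bp and ATAAATA at 15 bp. The windows 2000 bp to the left of both peaks held none, and 18.2% of such windows over all peaks held one.

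The other Nfib peaks had fewer ChIP tags, 16 to 29, and mostly gathered around the common start of the gene. The transcripts Nfib-001 and Nfib-201 start at 82151674 and 82151212 on chromosome 4, and peaks 4 to 7 lay within 8.74 kb around these starts. Peak 4 was 873 bp downstream of the start of Nfib-201, and peaks 5, 6 and 7 were 1.62, 3.87 and 7.40 kb upstream of that of Nfib-001. Their ChIP tags were 28, 29, 26 and 21, against 2, 2, 1 and 1 input tags, and together they held 104 ChIP tags against 6 input tags. Their scores were 30, 22, 24 and 21. Peak 6 alone of these 4 had a forkhead sequence in its central 200 bp, an ATAAACA.

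Peak 3, in intron 2 and 10.6 kb downstream of the start of Nfib-201, had 25 ChIP tags against 0 input tags. Its fold was at least 5.97 when 3 tags were taken as the upper limit of an input count of 0, and the exact 95% interval used for the other peaks had a lower limit of 4.51. Its deposited fold, 35.8, rests on 0.5 written in place of the missing input tag. Peak 8 was 1.40 kb upstream of the far start of the transcript Nfib-010, with 16 ChIP tags against 1 input tag and the lowest score in the list, 17. Beyond the 3′ end of Nfib and beyond the limit, another 3 peaks had Nfib as their nearest gene. The closest of them lay 218 kb from a start, with 16 ChIP tags against 0 input tags.

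Nfia, an NFI factor known for its role in gliogenesis and in the corpus callosum, had 7 peaks, 5 of them inside the gene. The highest score, 64, was that of peak 2 at chr4:97439147-97439647, whose centre lay 28 bp upstream of the start of the transcript Nfia-005. Its ChIP tags numbered 62 and its input tags 4, the fold was 11.1 (4.13 to 42.0), and its score exceeded those of 92.2% of all peaks. Peaks 3 and 4 lay at the common start of most Nfia transcripts, near 97444317, with 39 and 32 ChIP tags against 1 input tag each. Their folds were 27.9 (4.73 to 1132) and 22.9 (3.83 to 934), and these intervals overlap that of peak 2. Peaks 2 to 4 spanned 5.84 kb, and none of the 3 had a forkhead sequence anywhere.

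The centre of Nfia peak 2 is shown (chr4:97439298-97439497, plus strand) because most of its left side is a simple repeat. Capitals mark a run of alternating G and A of 75 bp.
Nfia peak 2 centre: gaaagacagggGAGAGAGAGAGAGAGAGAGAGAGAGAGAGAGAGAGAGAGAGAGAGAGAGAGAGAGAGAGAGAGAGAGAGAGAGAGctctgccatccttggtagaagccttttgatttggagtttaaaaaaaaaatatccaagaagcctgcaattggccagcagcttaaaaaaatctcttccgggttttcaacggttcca
A run of G and A (C and T on the other strand) of at least 20 bp was present in the central 200 bp of 87 of all peaks (0.949%) and in the windows to the left of 82 of them (0.895%). In 2 of the 9165 peaks, this one included, the run was at least as long. The 87 peaks had a median of 29 ChIP tags, 1 input tag and a score of 22, so peak 2 stood above their medians in all 3. The part of the repeat in the tag count of peak 2 was not tested.

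Within the Nfia introns, peak 5, at chr4:97505398-97506166 in intron 2, had 61 tags from the ChIP and 4 from the input, and a fold of 10.9 (4.06 to 41.4). Peak 6 had 45 tags against 3 (fold 10.7, 3.45 to 54.1) in the same intron, and peak 7 had 35 against 2 (fold 12.5, 3.22 to 108) in intron 10. Their scores were 30, 38 and 31. The start nearest to each was that of the transcript Nfia-007, at 97546810, which was 41.0, 44.5 and 227 kb away. These 3 intronic peaks were the Nfia peaks with GTAAACA, at -32, -222 and -6 bp from the centre. Peak 1, upstream of the gene by 18.2 kb, had 19 tags against 1 and no forkhead sequence. Peaks 1 to 3 also lay inside E130114P18Rik, a gene on the other strand that overlaps the Nfia start, and peak 4 had the start of that gene nearest (493 bp) and an Nfia start at 637 bp.

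Nfix, an NFI factor known for its roles in brain and fetal muscle, had 3 peaks inside the gene. Peak 3, at chr8:87323091-87324230, covered the start of the transcript Nfix-005 and was the widest of the 21 (1139 bp). Its 68 ChIP tags stood against 3 input tags, with a fold of 16.2 (5.33 to 80.7) and a score of 28. Peak 1, in intron 2, had 58 tags against 4 (fold 10.4, 3.85 to 39.4) and a score of 36, and the start nearest to it was that of G430095P16Rik, a gene annotated inside Nfix on the other strand. Peak 2, in intron 1, had 16 tags against 1 and the lowest score of the list, 17, and its central 200 bp held a run of A and C of 48 bp. None of the 3 had a forkhead sequence in the central 200 bp, but peak 1 had an ATAAACA at -218 bp from the centre and peak 2 an ATAAATA at 114 bp.

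The Nfix peaks held 4 of the 7 AP-2 sequences found over the whole width of the 21 peaks, 1 of them in a central 200 bp. Over the whole width, 23.8% of the 21 peaks and 24.6% of all peaks held such a sequence. Nfix peak 1 had 1, at chr8:87266564-87266612. Peak 3 had 3, at chr8:87323155-87323203, chr8:87323514-87323562 and chr8:87324032-87324080. They are shown with 20 bases on either side (plus strand, AP-2 sequence in capitals) to show the GC-rich surroundings.
Nfix peak 1: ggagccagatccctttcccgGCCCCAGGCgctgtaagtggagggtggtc
Nfix peak 3 left: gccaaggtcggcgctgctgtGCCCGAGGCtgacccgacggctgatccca
Nfix peak 3 middle: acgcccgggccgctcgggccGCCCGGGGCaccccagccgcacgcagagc
Nfix peak 3 right: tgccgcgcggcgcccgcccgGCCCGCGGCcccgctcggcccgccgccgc
The GC content of the central 200 bp was 66.5% in peak 1 and 84.5% in peak 3, the widest of the 21, against a median of 46% in all peaks. The part of GC content and width in these counts was not tested.

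Nfic, an NFI gene known for its role in tooth root formation, had no peak by the rule. The peak nearest to a start of Nfic was 57.6 kb away, had 16 ChIP tags against 1 input tag, and lay 250 bp from the start of Hmg20b.

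**Figure D2:**
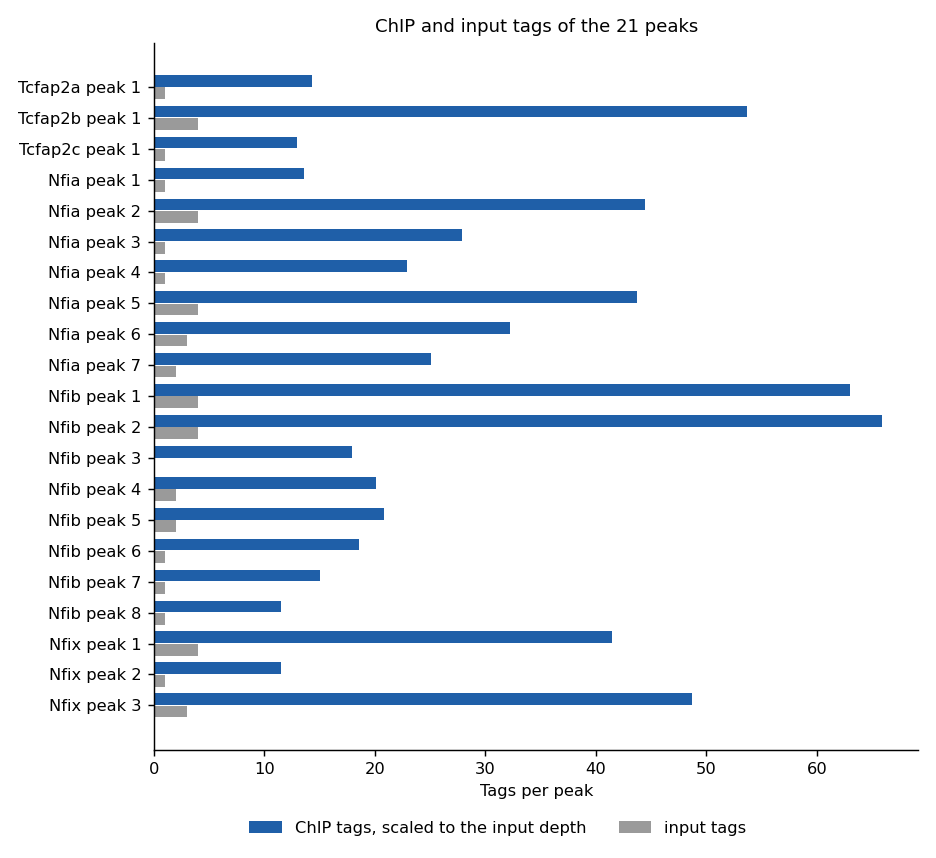
ChIP tags scaled to the depth of the input library (blue) and input tags (grey) in each of the 21 peaks, from 1 library of each kind. Nfib peaks 1 and 2 and the Tcfap2b peak have the longest ChIP bars (63.0, 65.9 and 53.7 scaled tags), and no input bar exceeds 4 tags.

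As a group the 21 peaks had medians close to those of the list. Their ChIP tags ranged from 16 to 92 with a median of 32, against a median of 30 (14 to 693) in all peaks. Their input tags ranged from 0 to 4, and the median was 2, as in all peaks. The median fold was 13.4 against 12.9, and the median score 28 against 25. Every peak of the list had to pass 10-fold over input to be called, which bounds the folds of the 21 and of the list alike. Summed over the 21 peaks, 873 ChIP tags stood against 45 input tags. By gene, the sums were 325 against 15 for Nfib, 293 against 16 for Nfia, 142 against 8 for Nfix and 113 against 6 for the 3 AP-2 genes together. The intervals cover counting error only.

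A forkhead sequence was present in the central 200 bp of 7 of the 21 peaks (33.3%), and in 40.8% of all peaks. The windows 2000 bp to the left held one in 3 of 21 cases (14.3%), and in 18.2% of all such windows. The same sequences read backwards, a control of base composition, were present in 3 of 21 centres and 3 of 21 windows to the left, against 18.8% of centres and 20.3% of left windows over all peaks. GTAAACA alone was present in 5 of 21 centres (23.8%) and in 0 of 21 windows to the left. Of all peaks, 15.3% held it, and of all windows to the left 3.30%. Over the whole width of the peaks, 22 forkhead sequences lay in 12 peaks (57.1%), 13 of them in the central 200 bp, and 64.3% of all peaks held one. Per kb of peak there were 1.75 forkhead sequences in the 21 and 2.12 in all peaks.

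**Figure D3:**
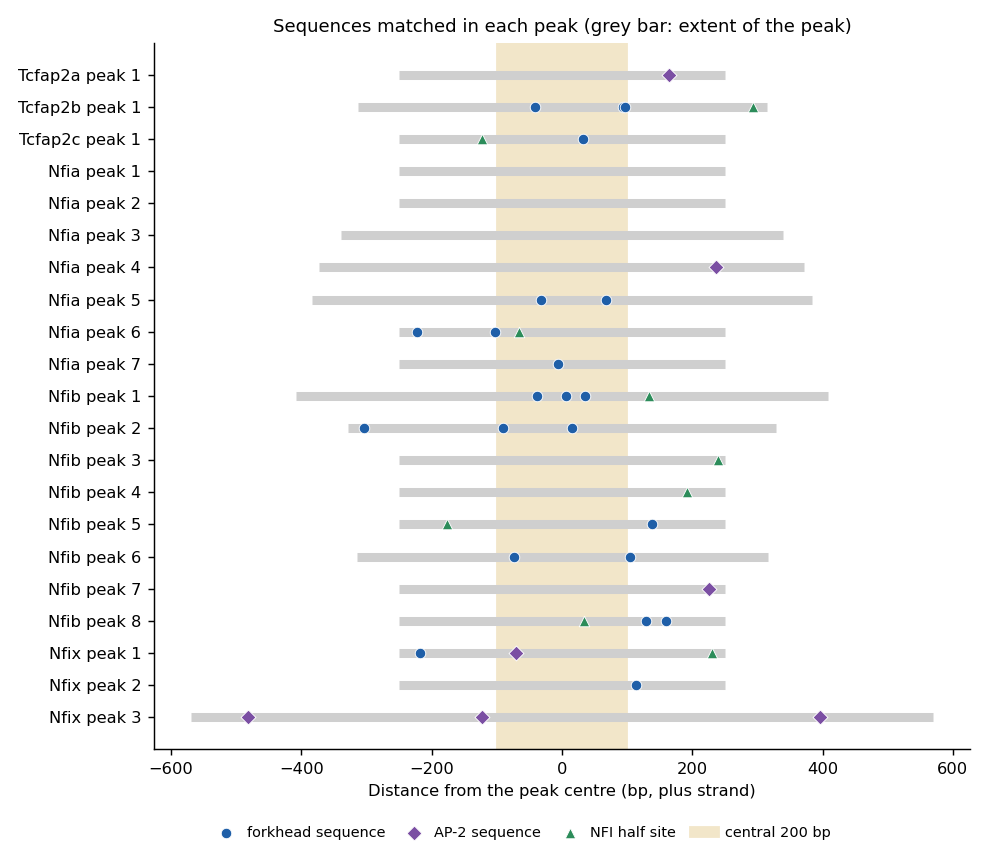
Distance of each forkhead sequence (circles), AP-2 sequence (diamonds) and NFI sequence TTGGCA (triangles) from the centre of its peak, in bp along the plus strand, with the extent of the peak in grey and the central 200 bp shaded. Of the 22 circles, 13 lie in the shaded band, against 1 of the 7 diamonds and 2 of the 9 triangles.

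Among the 21, the 7 peaks with a central forkhead sequence had a higher median of ChIP tags than the other 14, as was so in all peaks. The 7 were those of Tcfap2b and Tcfap2c, Nfia peaks 5 and 7, and Nfib peaks 1, 2 and 6. Their ChIP tags were 18 to 92 with a median of 61, against 16 to 68 with a median of 28.5 in the other 14, and the ranges overlap. Over all peaks the medians were 36.5 with and 28 without the sequence. No central forkhead sequence lay in the 6 peaks within 1 kb of a start, and 7 of the other 15 had one. In all peaks 9.89% of those within 1 kb of a start and 51.5% of the others had one. The GC content of the central 200 bp moved with this split, at 33.5% to 48.5% in the 7 and 35.0% to 84.5% in the 14, and its part in the split was not tested.

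The binding sequences of the 2 families themselves were not more frequent in the centres of these peaks than in the list. GCCNNNGGC was present in the central 200 bp of 1 of 21 peaks, that of Nfix peak 1, and in 11.8% of all peaks. Over the whole peak it was present in 5 of 21 (23.8%) and in 24.6% of all peaks. TTGGCA, 1 arm of the NFI palindrome and the base after it, was present in 2 of 21 centres, those of Nfia peak 6 and Nfib peak 8, and in 11.4% of all peaks. Over the whole peak it was present in 9 of 21 (42.9%), of which 5 were Nfib peaks, and in 28.2% of all peaks. The full NFI palindrome was present in 0 of the 21 and in 9 of all peaks. In the windows to the left, GCCNNNGGC was present in 0 of 21 cases (3.35% over all peaks) and TTGGCA in 1 (9.59%).

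Genes with several peaks were the long ones, and the part of length in the counts was not tested. The NFI genes with peaks are long, 429 kb for Nfia, 416 kb for Nfib and 100.5 kb for Nfix, while Nfic (34.8 kb) and the AP-2 genes (9.03 to 63.3 kb) are short. Among the 446 genes within 1.5 times the length of Nfia, 4.26% had at least 7 peaks and the median was 1. Among the 482 genes of a length like that of Nfib, 1.66% had at least 8, and among the 2270 of a length like that of Nfix, 4.71% had at least 3. For the short genes, a peak was counted at 15.1% of genes as long as Tcfap2c, 20.1% of those as long as Tcfap2a and 24.4% of those as long as Tcfap2b. Tcfap2d, Tcfap2e and Nfic had none, like most genes of their lengths, of which 36.2%, 20.9% and 26.4% had a peak.

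**Figure D4:**
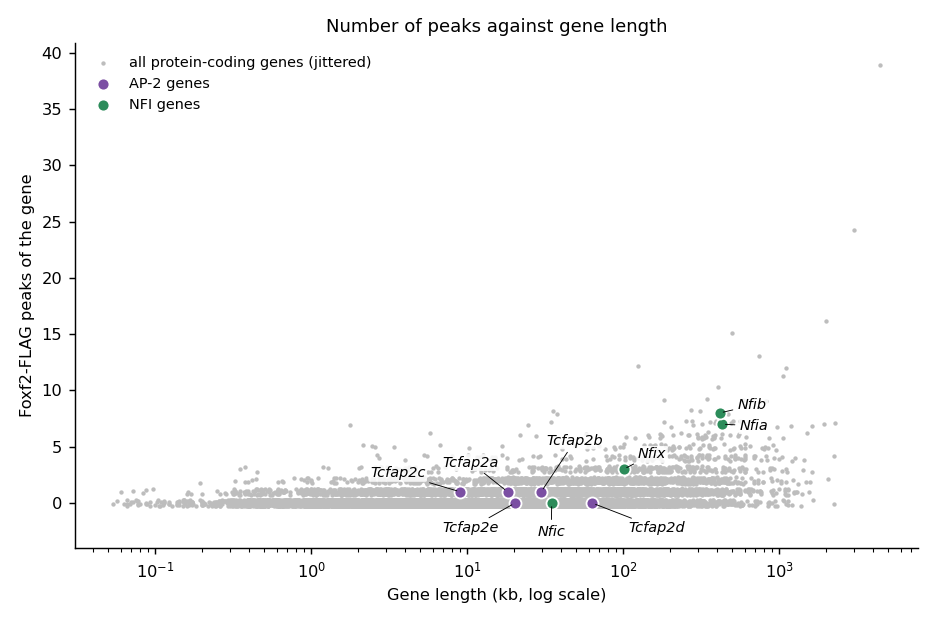
Number of Foxf2-FLAG peaks by gene length (kb, log scale) for the 5 AP-2 genes (purple), the 4 NFI genes (green) and all 22359 protein-coding genes (grey, shifted slightly up or down at random to separate them). Nfib (8 peaks) and Nfia (7) lie above most genes of their length, where the median is 1, and the AP-2 genes lie at 0 and 1. The 39 peaks at the upper right belong to a gene model of 4435 kb, Gm20388.

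Peaks within a promoter were found at 4 of the 9 genes. Tcfap2a, Nfia, Nfib and Nfix each had a peak that lay within 1 kb of one of their starts and was assigned to it, compared with 10.3% of all genes. The 9 genes had from 1 (Tcfap2d and Tcfap2e) to 9 (Nfia) distinct start positions, and the part of this number was not tested. Peaks of these genes also lay close to each other. For 8 of the 21 (38.1%), 3 at Nfia and 5 at Nfib, the next peak was within 10 kb, and this was so for 14.9% of all peaks. The median distance to the next peak was 18.2 kb against 61.8 kb in all peaks. Neighbouring peaks of 1 gene are not independent of each other.

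Proteins known to bind or modify AP-2 and NFI proteins had peaks at their genes in 9 of 15 cases. By the same rule, 23.9% of all protein-coding genes had a peak. Among genes within 1.5 times the length of each partner, this share ran from 6.21% for Cited4 to 78.0% for Wwox. The list was chosen with earlier results of these data known, and the part of length in its count was not tested. Of 9 AP-2 partners, 4 had a peak. Wwox, an oxidoreductase with WW domains that binds AP-2 gamma, had the highest score (166, 209 ChIP tags against 8 input tags) among 5 peaks in a gene of 913 kb. Cited2, an AP-2 coactivator, had a promoter peak with a score of 83 and 207 tags against 14. Ctbp2, a corepressor, reached 66 (100 tags against 3) and Cited4, another coactivator, 18 (16 tags against 0). Those without a peak included Cited1, Ctbp1, and Kctd1 and Kctd15, which encode inhibitors of AP-2.

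Of 6 NFI partners, 5 had a single peak each. Their scores included 31 for Pou2f1, 30 for Creb1 and 25 for Ski, which encodes a corepressor. Pou2f1 had 31 ChIP tags against 2 input tags, Creb1 30 against 2 and Ski 24 against 1, beside a median of 30 ChIP tags in all peaks. Foxa1, the gene of a forkhead factor that acts with NFI proteins, had none. The partners were a list of 15 names and were not compared with lists of other genes.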

How the data were processed

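Reads were aligned to mm9, with Bowtie 1.0.0, SAMtools 0.1.19 and HOMER named, per the submitters' processing notes. Per the file headers, HOMER findPeaks (version not stated) called regions in histone style, which stitches 500 bp peaks, from 1 ChIP library with 1 input library as background, with a fragment length of 112 bp, at most 1 tag per position and at least 10-fold over input and over the surrounding 10000 bp. The deposited signal was ChIP tags scaled to 10000000, per the file headers. Multiplied back, values lay within 0.134 of whole tags and their sum, 397999, equals the number in peaks that the header states (1.48% of all). The deposited ratio (fold) was scaled ChIP over input tags, with 0.5 written for no input tag. The score, as deposited, is that of findPeaks, and the authors' p-value was not used. The region width and the clonal fold deposited by the authors entered no test.

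Peak ends and the 21 chromosome names fitted the NCBIM37 reference (mm9). Genes and starts of protein-coding transcripts were GENCODE vM1. Peaks were placed by their centres. Exact 95% intervals of a fold are conditional on ChIP plus input tags. Both strands of the central 200 bp, of the whole peak and of an equally wide window 2000 bp toward lower coordinates were searched for each motif, with overlapping matches kept, and the palindromic AP-2 and NFI patterns were counted once per position. Python 3.11.15, numpy 2.4.6, pandas 2.3.3, scipy 1.17.1 and pysam 0.24.0 were used, and assignment, motif search and intervals were tested on simulated data. Input values were read from the peak list alone. No significance test was made, since there is 1 library of each kind. Alternatives covered the assignment distance, annotated starts, thresholds on peaks, motif windows and motif forms. All 9 genes are named. Of the partners, up to 4 per group with the highest score and those without a peak are named, and G430095P16Rik, E130114P18Rik and other neighbouring genes where they bear on assignment. Values of some partners are not reported here. The members and lists were chosen with earlier results of these data known.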

Additional observations from a re-analysis of the deposited data

How the results depend on the processing

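Of 61 alternatives to the counts and medians over the genes, 42 stayed within 1.5 times the count given or within the interval of the median (21 to 31 for the score, 11.1 to 16.2 for the fold), and 19 did not. With the nearest start within 10 kb, 1 AP-2 gene had a peak in place of 3. Among the higher-scoring peaks, down to the middle of the list by score, this number was 1 again, at 15-fold or more 0 and with at least 3 input tags 1, while 3 NFI genes kept a peak under each alternative. The 21 peaks became 11 among the higher-scoring peaks, 8 at 15-fold or more and 8 with at least 3 input tags, where 3 partner genes remained in place of 9 and the median score was 37. Of 90 alternatives to the counts of single genes, 72 stayed within 1.5 times and 18 did not. Nfib had 3 peaks among the higher-scoring ones, 5 at 15-fold or more and 2 with at least 3 input tags, in place of 8. Nfia had 2 at 15-fold or more and 3 with at least 3 input tags in place of 7, and Nfix 1 at 15-fold or more in place of 3. In the central 400 bp and the whole peak, forkhead sequences were found in 11 and 12 peaks in place of 7, AP-2 sequences in 3 and 5 in place of 1, and NFI sequences (TTGGCA) in 6 and 9 in place of 2. In the central 100 bp AP-2 sequences were in 0 and NFI sequences in 1, among the higher-scoring peaks NFI sequences in 1, and the full NFI site in 0. Starts of all transcripts of protein-coding genes, and the partner alternatives, were added after seeing the data. With starts of all annotated genes the Tcfap2b peak was assigned to a pseudogene. Fewer peaks enter under the stricter thresholds, and wider windows hold more sequence, by construction. At 0 to 4 input tags per peak, folds cannot be ranked among these peaks. No paired analysis was possible because there was 1 library of each kind.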
